A study of Homo sapiens with 24 samples.

Results

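The genes described here encode the proteins of the mitochondrial ribosome. They were chosen by symbol, as all genes whose symbol begins with MRPL or MRPS followed by a digit, with the probe set of the highest mean over all 24 arrays standing for each gene. The rule found 78 of the 14884 genes measured. Of these, 73 are protein-coding genes, 50 for proteins of the large subunit and 23 for proteins of the small subunit, where MRPS30 and MRPS18A count with the large subunit to which their proteins belong. The other 5 are the antisense RNA genes MRPL20-AS1 and MRPL23-AS1 and the pseudogenes MRPL42P5, MRPL45P2 and MRPS31P5, which share a symbol prefix with the subunit genes but encode no subunit.

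The mitochondrial ribosome translates the messages of mitochondrial DNA, which code for core membrane subunits of the respiratory chain and the ATP synthase. Its ribosomal RNAs come from mitochondrial DNA, but its proteins are all encoded in the nucleus, made in the cytosol and imported. Some have counterparts in all ribosomes, some in bacterial ribosomes only, and some are specific to mitochondria.

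The samples were HepG2 cells, a human liver cancer cell line, and total RNA was measured on Affymetrix whole-transcript arrays. BRD8518 is a compound with a code name only, and was given at 1 uM for 1 h (3 arrays), 6 h (2 arrays) and 24 h (3 arrays). Oncostatin M (OSM), a cytokine of the interleukin-6 family, was given at 100 ng/mL for 1 h (3 arrays) and 24 h (3 arrays). Vehicle controls received DMSO for 1 h (3 arrays), 6 h (4 arrays) and 24 h (3 arrays), and every group, the OSM groups included, carried DMSO at a final 0.25%. Other doses of BRD8518 at 6 h are not analysed here. The labels do not tell whether replicate arrays stem from separate cultures, so p-values measure only the spread between arrays, which may be technical.

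All values are log2 levels as deposited, and each change is a difference of group means on that scale from 1 limma fit over all arrays. A gene is said to have risen or fallen where its Benjamini-Hochberg adjusted p over all 14884 genes was under 0.05. The hepatocyte markers APOB, APOA2 and ALB had mean log2 levels of 12.54, 12.38 and 12.33, while CD14, PECAM1 and VWF, markers of monocytes and endothelium, had 5.30, 5.62 and 5.03, below the median of all genes at 6.00. CD68, a lysosomal protein listed as a leukocyte marker, had 9.81. DMSO 6 h replicate 2 stood apart, with a median absolute deviation from its group mean of 0.27 over all genes, against 0.08 to 0.17 on the other 23 arrays. In the position code of the labels, whose meaning is not stated, all 24 h arrays carried the letter A except DMSO 24 h replicate 3, and all 6 h arrays the letter D. At 1 h the OSM and DMSO arrays and BRD8518 replicate 1 carried B, and BRD8518 replicates 2 and 3 carried C.

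The promoters of members are shown because the same short motifs recur among them and because members that moved in opposite directions can be compared. RefSeq promoter windows (GRCh38.p14, 250 bases before to 50 after the gene start) were matched for 67 of the 78 members, 65 of them protein coding. The 5 windows below belong to MRPL11 (chr11:66438799-66439098, minus strand), which had the largest fall with BRD8518 at 24 h, to MRPL30 (chr2:99180934-99181233, plus strand) and MRPL17 (chr11:6683291-6683590, minus strand), which also fell, and to MRPS10 (chr6:42217812-42218111, minus strand) and MRPS30 (chr5:44808697-44808996, plus strand), which rose. Each is printed 5′ to 3′ on the strand of its gene, and capitals mark matches, on either strand, to GCGCA, any base and then GCGC (the NRF1 motif), CCGGAAG (an ETS family motif) or AAGATGGC (a YY1 motif).
MRPL11: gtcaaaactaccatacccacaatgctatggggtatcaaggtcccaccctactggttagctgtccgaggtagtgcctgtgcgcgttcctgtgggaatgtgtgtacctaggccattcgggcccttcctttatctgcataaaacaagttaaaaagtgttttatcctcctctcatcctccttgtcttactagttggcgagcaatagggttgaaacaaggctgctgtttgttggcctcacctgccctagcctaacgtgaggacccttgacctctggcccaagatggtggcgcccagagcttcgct
MRPL30: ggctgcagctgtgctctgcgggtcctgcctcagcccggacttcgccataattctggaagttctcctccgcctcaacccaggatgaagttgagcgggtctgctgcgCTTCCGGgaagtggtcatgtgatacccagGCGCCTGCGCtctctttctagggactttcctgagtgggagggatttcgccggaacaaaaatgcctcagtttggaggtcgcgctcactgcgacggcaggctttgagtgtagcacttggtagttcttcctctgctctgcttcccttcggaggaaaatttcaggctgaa
MRPL17: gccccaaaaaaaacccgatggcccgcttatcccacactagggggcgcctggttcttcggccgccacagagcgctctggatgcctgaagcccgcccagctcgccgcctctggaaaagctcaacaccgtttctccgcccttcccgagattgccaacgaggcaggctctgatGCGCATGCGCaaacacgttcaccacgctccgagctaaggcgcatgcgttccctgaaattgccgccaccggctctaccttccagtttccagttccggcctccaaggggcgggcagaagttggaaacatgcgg
MRPS10: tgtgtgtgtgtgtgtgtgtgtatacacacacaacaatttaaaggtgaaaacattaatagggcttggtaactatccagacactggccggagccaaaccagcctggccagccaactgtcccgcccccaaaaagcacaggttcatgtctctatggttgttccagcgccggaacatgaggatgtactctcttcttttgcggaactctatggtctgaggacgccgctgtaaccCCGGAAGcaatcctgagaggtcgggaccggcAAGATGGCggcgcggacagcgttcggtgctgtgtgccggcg
MRPS30: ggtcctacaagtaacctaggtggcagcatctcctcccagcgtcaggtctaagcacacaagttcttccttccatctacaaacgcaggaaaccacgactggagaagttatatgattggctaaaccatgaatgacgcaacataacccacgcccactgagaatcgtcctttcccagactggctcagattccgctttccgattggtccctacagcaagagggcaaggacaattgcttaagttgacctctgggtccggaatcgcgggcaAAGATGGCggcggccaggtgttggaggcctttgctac
MRPL11 held none of these letters in this window, MRPL17 held the NRF1 motif, MRPL30 the NRF1 motif and the ETS motif, MRPS10 the ETS and YY1 motifs, and MRPS30 the YY1 motif. MRPL30 and MRPL17 were picked as members that fell and held the NRF1 motif, and MRPL11, MRPS10 and MRPS30 without regard to motifs. These windows therefore do not show how often a motif occurs among members that fell or rose.

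The ETS and YY1 motifs stood in larger shares of the members than of all promoters, which is a description with no test. CCGGAAG or its reverse complement stood in 28 of the 65 matched coding members (43.1%), against 10.7% of all 27305 promoters and 20.9% of the 5973 promoters of tested genes at or above the median level. AAGATGGC stood in 19 (29.2%), against 3.03% and 6.18% in the same promoter sets. The NRF1 motif stood in 8 (12.3%), against 6.28% of all promoters and 12.5% of those of genes at or above the median level. The E-box CACGTG stood in 5 (7.69%), against 7.43% and 10.5%. None of the 4 motifs contains another, and a match is a description of the sequence, not a binding site.

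Most coding members had bright probe sets relative to all genes measured in these cells. Of the 73 coding members, 71 had a mean level at or above the median of all genes. Mean levels over the 24 arrays ran from 5.81 for MRPL54 to 11.37 for MRPL45, with a median of 8.17. The brightest probe sets after MRPL45 were those of MRPS7 at 10.82 and MRPS21 at 10.81. The dimmest of all 78 were those of the pseudogenes MRPL42P5 at 3.03 and MRPS31P5 at 5.16, followed by MRPL54. Probe sets differ in brightness, so this is no order of transcript amounts. The SD of a coding member within its groups had a median of 0.11, from 0.05 for MRPS18B to 0.36 for MRPL42.

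Averaged over the 73 coding members, the arrays of BRD8518 at 24 h lay apart from the others. The mean level was 8.04, 8.14 and 8.05 on the BRD8518 24 h arrays, against 8.29, 8.27 and 8.37 on the DMSO 24 h arrays. OSM 24 h arrays had 8.32, 8.20 and 8.24. The BRD8518 24 h arrays were the 3 lowest of all 24 and overlapped neither other 24 h group. At 6 h the means were 8.22 and 8.27 with BRD8518, against 8.30, 8.26, 8.32 and 8.30 with DMSO, so that these groups overlapped. At 1 h the group means were 8.30 ± 0.08 with BRD8518, 8.28 ± 0.03 with OSM and 8.26 ± 0.03 with DMSO (SD, n = 3 each). BRD8518 24 h was the group with the lowest mean for 48 of the 73 members. The share of all genes with their lowest mean in this group was not counted.

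**Figure D1:**
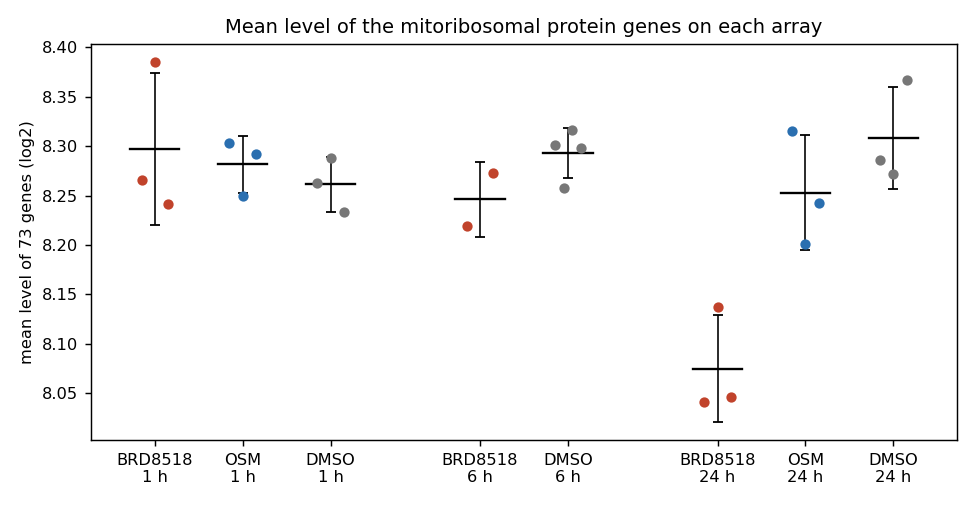
Mean log2 level of the 73 coding mitoribosomal protein genes on each array (points), with the group mean (line) and SD (bar), by treatment and time. The 3 BRD8518 24 h arrays, at 8.04 to 8.14, lie below the other 21 arrays.

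After 24 h with BRD8518, 31 of the 73 coding members fell (42.5%) and 2 rose (2.74%), while 40 did not pass the test. Of all 14884 genes, 15.6% fell and 12.1% rose in the same limma comparison. The median change of the members was -0.23 on the log2 scale, where the median of all genes was -0.00. The falls ran from -0.93 to -0.20, with a median of -0.46, and 12 of them exceeded 0.5 in size. In RNA from whole wells of this cell line, a fall in all cells and a fall in some of them cannot be told apart. Array levels are also relative to the rest of the RNA in each sample. Among genes at or above the median level alone, 34 of 71 members fell and 3 rose, where 29.1% of the 7442 genes tested fell and 20.8% rose. Without DMSO 24 h replicate 3, which leaves only arrays of position letter A, 24 members fell and 2 rose, with a median change of -0.18.

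All 3 BRD8518 arrays lay below all 3 DMSO arrays for 46 of the 73 members, and above them for 6. Over all genes the same was true of 24.4% and 19.8%. Each of the 31 members that fell was among the 46. Of the 40 that did not pass the test, 31 had a negative and 9 a positive change, from -0.39 to 0.25.

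**Figure D2:**
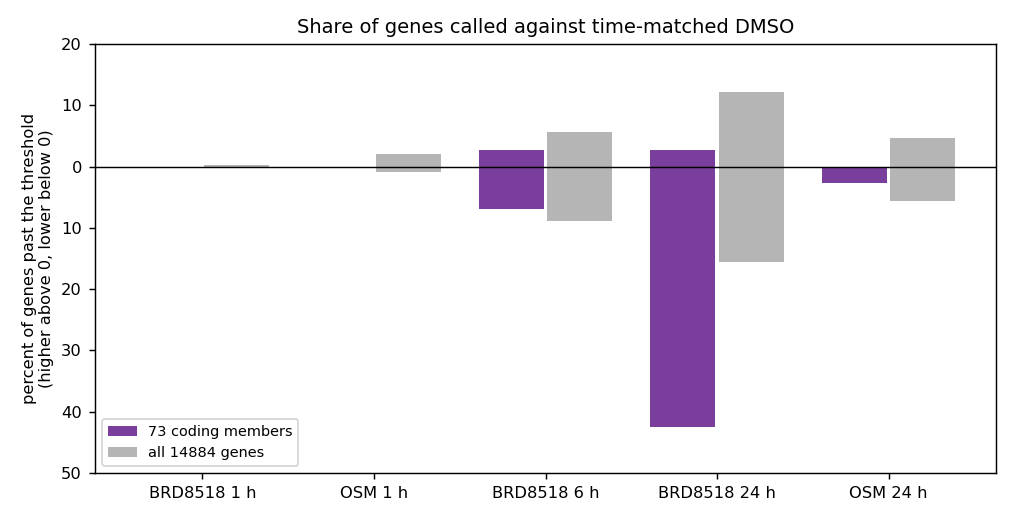
Percent of the 73 coding members (purple) and of all 14884 genes (grey) that rose (above 0) or fell (below 0) against time-matched DMSO, with limma adjusted p under 0.05. The members that fell with BRD8518 at 24 h, 42.5%, exceed the 15.6% of all genes, and in the other 4 comparisons at most 6.85% of members passed in either direction.

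The largest fall was that of MRPL11, whose protein sits at the base of the stalk where translation factors bind the large subunit. Its levels were 8.06, 8.32 and 8.15 on the BRD8518 24 h arrays, against 9.06, 9.03 and 9.22 on the DMSO 24 h arrays. All 3 BRD8518 arrays lay well below the lowest DMSO array, and no other group reached so low. The change was -0.93 (SE 0.086, adjusted p = 1.71e-08 by limma), a fold of 0.5265. MRPL1, the protein of the mobile L1 stalk near the exit site, had 6.04, 6.10 and 6.07 with BRD8518, against 6.71, 6.75 and 6.62 with DMSO. The groups did not overlap, and the change was -0.62 (SE 0.095, adjusted p = 1.96e-05). MRPL30, another large subunit protein with counterparts in bacterial and cytosolic ribosomes, had 9.03, 9.12 and 9.02 with BRD8518, against 9.59, 9.68 and 9.63 with DMSO. Its change was -0.57 (SE 0.13, adjusted p = 0.0017), and the groups were again separate.

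Among large subunit proteins specific to mitochondria, MRPL43, MRPL48 and MRPL49 fell by similar amounts. MRPL43 had 6.15, 6.19 and 6.14 with BRD8518, against 6.81, 6.71 and 6.88 with DMSO, a change of -0.64 (adjusted p = 1.45e-06). For MRPL48 the levels were 7.49, 7.78 and 7.61 with BRD8518, against 8.27, 8.18 and 8.32 with DMSO, and the change was -0.63 (adjusted p = 0.000309). MRPL49 had 7.62, 7.71 and 7.81 with BRD8518, against 8.28, 8.26 and 8.46 with DMSO, a change of -0.62 (adjusted p = 6.11e-06). All 3 had groups that did not overlap. MRPL43 overlaps SEMA4G in the annotation, and MRPL49 overlaps SYVN1, and whether their probe sets read the neighbours was not tested.

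Of the small subunit, MRPS27 and MRPS7 were among the 8 largest falls. MRPS27, a pentatricopeptide repeat protein, had 6.94, 7.06 and 6.87 with BRD8518, against 7.63, 7.62 and 7.46 with DMSO, a change of -0.61 (adjusted p = 3.8e-05). MRPS7, the counterpart of bacterial S7 in the head of the small subunit, had 10.29, 10.39 and 10.44 with BRD8518, against 10.93, 10.88 and 10.98 with DMSO. Its change was -0.56 (adjusted p = 8.42e-06), and neither gene's groups overlapped. MRPS7 overlaps GGA3 and MIF4GD in the annotation. These 8 falls kept their call in all 14 alternative fits, and over them MRPL11 ranged from -0.998 to -0.866.

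**Figure D3:**
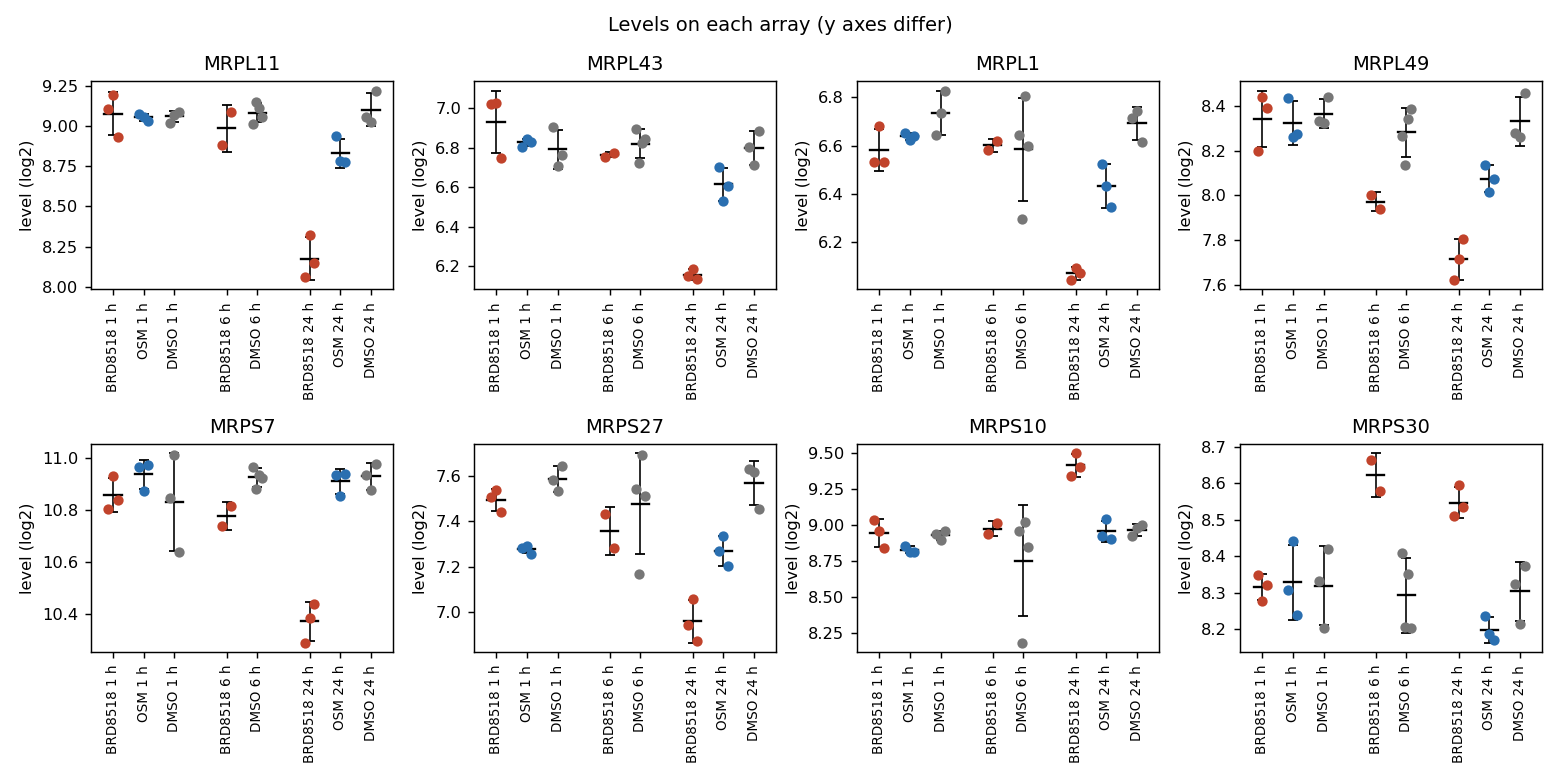
Log2 level on each array (points), with the group mean (line) and SD (bar), for 6 members that fell with BRD8518 at 24 h (MRPL11, MRPL43, MRPL1, MRPL49, MRPS7, MRPS27) and the 2 that rose (MRPS10, MRPS30), with a y axis of its own for each gene. BRD8518 24 h arrays are below all DMSO 24 h arrays for the first 6 genes and above them for the last 2.

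The other 23 coding members that fell had changes between -0.54 and -0.20. They include MRPL18, MRPL16, MRPL13, MRPL14, MRPL19 and MRPL22 of the large subunit and MRPS17, MRPS9 and MRPS15 of the small subunit, all with counterparts in bacteria. By subunit, 22 of 50 large and 9 of 23 small subunit genes fell, with median changes of -0.23 and -0.24. By ancestry, 12 of 26 genes with counterparts in all ribosomes fell (median -0.30), 9 of 16 with bacterial counterparts only (median -0.27), and 10 of 31 specific to mitochondria (median -0.16). Differences between these classes were not tested.

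**Figure D4:**
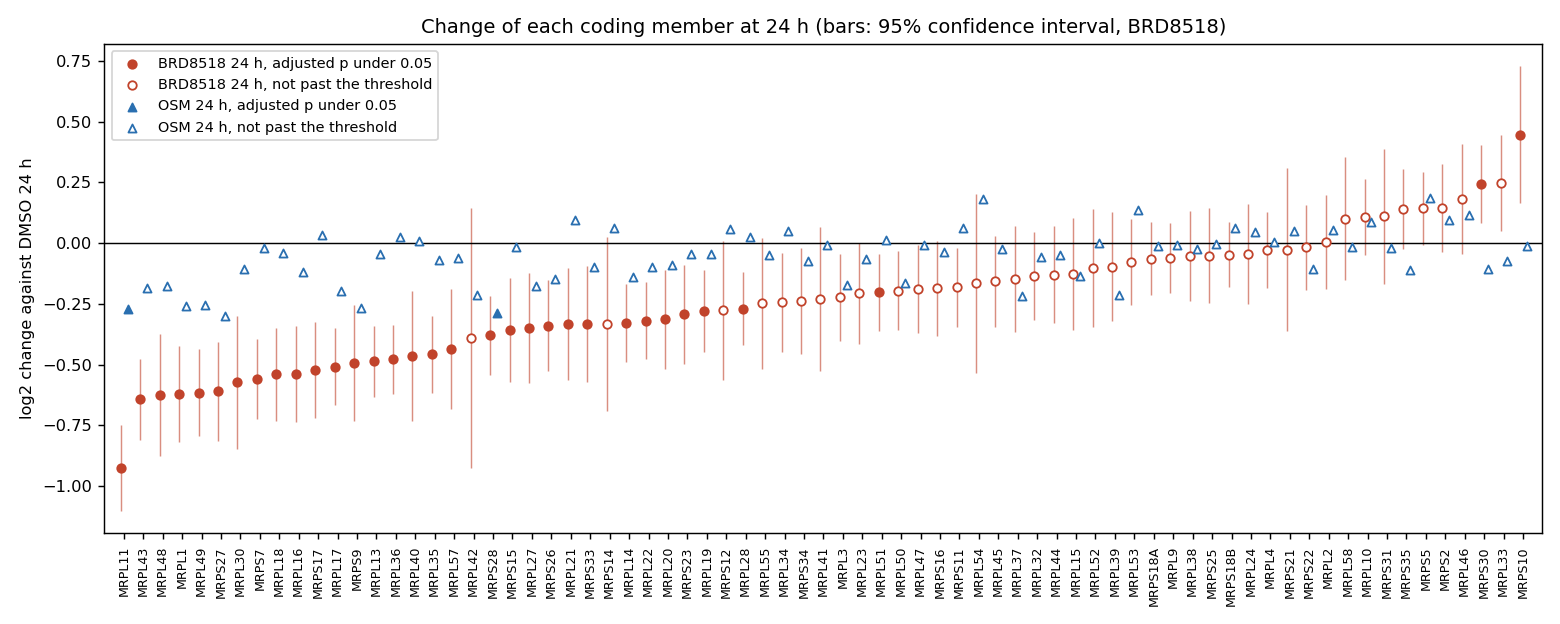
Log2 change against DMSO 24 h of each of the 73 coding members, ordered by the BRD8518 change, with BRD8518 as circles (bars are 95% confidence intervals) and OSM as triangles. Filled symbols passed the limma threshold, 33 for BRD8518 and 2 for OSM (MRPL11 and MRPS28).

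Only MRPS10 and MRPS30 rose among coding members at 24 h. MRPS10, the counterpart of bacterial S10, had 9.339, 9.500 and 9.405 with BRD8518, against 8.924, 8.978 and 9.004 with DMSO, a change of 0.45 (SE 0.14, adjusted p = 0.0158 by limma). MRPS30, a large subunit protein despite its symbol, had 8.51, 8.60 and 8.53 with BRD8518, against 8.32, 8.21 and 8.37 with DMSO, a change of 0.24 (SE 0.078, adjusted p = 0.021). Neither gene's groups overlapped. Both calls were lost without BRD8518 24 h replicate 2, at 0.40 for MRPS10 (adjusted p = 0.063) and 0.22 for MRPS30 (adjusted p = 0.079). Leaving out 1 DMSO array had the same effect, replicate 1 for MRPS10 (0.42, adjusted p = 0.0533) and replicate 2 for MRPS30 (0.20, adjusted p = 0.109). The paralogs MRPS18A and MRPS18B did not pass, with changes of -0.06 and -0.05, and all 7 probe sets of MRPS18B held identical values. Of the genes with several differing probe sets, MRPS16 changed by -0.19 on the set used and by -0.41 on a dimmer one.

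At 6 h with BRD8518, 5 of the 73 coding members fell and 2 rose, where 8.86% of all genes fell and 5.62% rose. The median change was -0.06 for the members and -0.01 for all genes. MRPS25, a small subunit protein specific to mitochondria, had 7.83 and 7.64 with BRD8518, against 8.14, 8.17, 8.38 and 8.29 with DMSO. The groups did not overlap, and the change was -0.51 (SE 0.0995, adjusted p = 0.000858). MRPL35, the counterpart of bacterial L35, had 9.16 and 9.33 with BRD8518, against 9.68, 9.41, 9.62 and 9.63 with DMSO, a change of -0.34 (adjusted p = 0.00501). MRPS9, MRPL49 and MRPS18B fell as well, by 0.38, 0.31 and 0.26 on the log2 scale (adjusted p = 0.041, 0.0229 and 0.0106).

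The members that rose at 6 h were MRPS35, specific to mitochondria in the small subunit, and MRPS30. MRPS35 had 9.53 and 9.59 with BRD8518, against 9.28, 8.95, 9.20 and 9.28 with DMSO, a change of 0.38 (adjusted p = 0.00268). MRPS30 had 8.67 and 8.58 with BRD8518, against 8.41, 8.21, 8.35 and 8.20 with DMSO, a change of 0.33 (adjusted p = 0.00737). Groups were separate for both. At 6 h the BRD8518 arrays all lay above the DMSO arrays for 5 of the 73 members and below for 13. Over all genes the same was true of 11.9% and 15%. A limma fit of the 2 groups alone called 0 members. In the fit over all arrays, 11 of the 73 had an unadjusted p under 0.05, against 3758 of all 14884 genes, a larger share. Without DMSO 6 h replicate 2, 10 members fell and 2 rose, and without BRD8518 6 h replicate 1, 1 fell and 1 rose. Centring each array on its median left 2 that fell and 2 that rose, with a median change of 0.02 for the members and 0.07 for all genes.

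After 1 h, 0 of the 73 coding members passed the limma test for BRD8518, where 0.222% of all genes rose and 0.0336% fell. An unadjusted p under 0.05 was found for 1 member, against 760 of all 14884 genes, a larger share. The median change of the members was 0.03. The largest changes each way among all 78 members were those of MRPL54 (0.21) and MRPS22 (0.18), and of MRPL45P2 (-0.34) and MRPL42 (-0.18).

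Over the BRD8518 time course, MRPL35, MRPL49 and MRPS9 fell at both 6 h and 24 h. They are 60.0% of the 5 that fell at 6 h, where 42.5% of all 73 coding members fell at 24 h. They are 9.68% of the 31 that fell at 24 h, where 6.85% of the 73 fell at 6 h. The overlap over all genes was not counted. Their 6 h calls were lost in 2, 5 and 6 of 14 alternatives, at adjusted p up to 0.243, 0.265 and 0.436 in limma. Of the 8 largest falls at 24 h, MRPL49 alone had also passed the test at 6 h. MRPL11 changed by -0.10 at 6 h, MRPL43 by -0.06, MRPL1 by 0.02 and MRPL16, a large subunit protein of the universal class, by 0.09, and none of these passed. In the test of the difference itself, 11 coding members had a lower and 1 a higher BRD8518 effect at 24 h than at 6 h, where 5.12% of all genes were lower and 5.96% higher. The difference was -0.83 for MRPL11 (adjusted p = 0.000108), -0.64 for MRPL1 (adjusted p = 0.0033), -0.63 for MRPL16 (adjusted p = 0.00351) and -0.59 for MRPL43 (adjusted p = 0.00169). MRPS25 went the other way, with an effect of -0.51 at 6 h and -0.05 at 24 h (difference 0.46, adjusted p = 0.032). That call was lost in 9 of 20 alternatives, among them the fit of the compared groups alone (adjusted p = 0.0768). Between 6 h and 1 h, 1 coding member differed, MRPL35 with a lower effect at 6 h (difference -0.46, adjusted p = 0.0152), where 3.91% of all genes were lower and 2.1% higher.

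**Figure D5:**
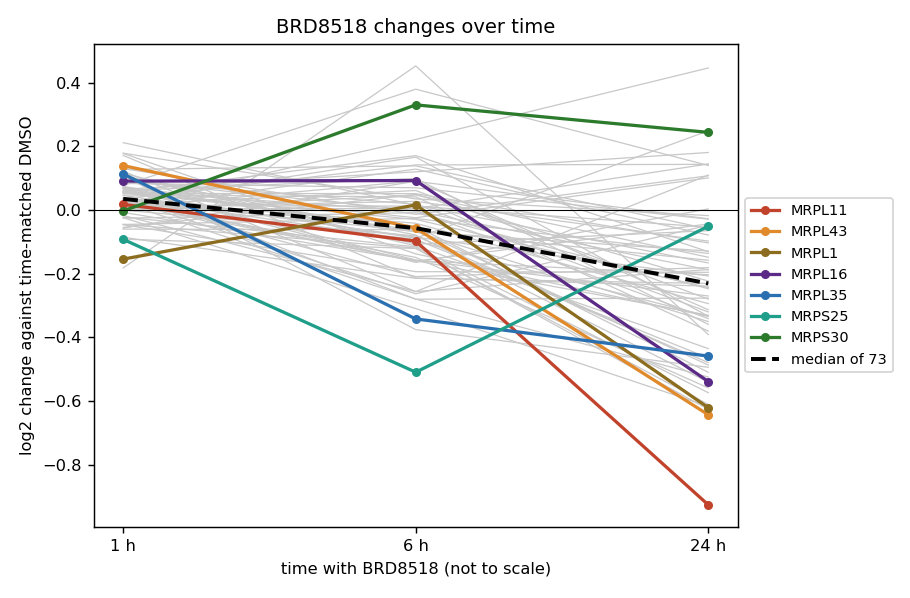
Log2 change against time-matched DMSO of the 73 coding members (grey lines) after 1, 6 and 24 h with BRD8518, with 7 members in colour and the median of the 73 dashed. The median is 0.03, -0.06 and -0.23 at the 3 times, MRPL11 reaches -0.93 at 24 h, and MRPS25 is lowest at 6 h.

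With OSM, few of these genes passed the test. At 1 h, 0 of 73 coding members passed the limma test, where 2.03% of all genes rose and 0.813% fell. Of the 73, 2 had an unadjusted p under 0.05, against 1632 of all 14884 genes, a larger share. MRPL54 had the largest positive change (0.32), followed by MRPL42P5 (0.21), and MRPL45P2 had the largest negative change (-0.41, adjusted p = 0.155). At 24 h, 2 coding members fell and 0 rose, where 5.65% of all genes fell and 4.6% rose. Of the 73, 9 had an unadjusted p under 0.05, against 2982 of all 14884 genes, again a larger share. MRPL11 had 8.94, 8.78 and 8.77 with OSM, against 9.06, 9.03 and 9.22 with DMSO, and MRPS28, a small subunit protein, had 7.47, 7.38 and 7.35 with OSM, against 7.75, 7.59 and 7.73 with DMSO. OSM and DMSO arrays were separate for both. All OSM arrays lay below all DMSO arrays at 24 h for 18 of the 73 coding members and for 16.6% of all genes. The changes were -0.27 for MRPL11 (SE 0.086, adjusted p = 0.0473) and -0.29 for MRPS28 (SE 0.079, adjusted p = 0.0189). Each call was lost under quantile normalization and in most fits without 1 array, so the count ranged from 0 to 2 when arrays were left out. MRPL43, MRPL49 and MRPL1, which fell with BRD8518, changed by -0.19, -0.26 and -0.26 with OSM and did not pass. MRPS27 had the largest negative change with OSM among coding members, with 7.27, 7.34 and 7.20 with OSM, against 7.63, 7.62 and 7.46 with DMSO, but did not pass (-0.30, adjusted p = 0.0561). The median change with OSM at 24 h was -0.04 for the members and 0.01 for all genes. The OSM effect at 24 h differed from that at 1 h for 0 of 73 coding members. Of all genes, 1.27% were higher and 2.1% lower. In limma, 4 members had an unadjusted p under 0.05, against 1783 of all 14884 genes, a larger share. The BRD8518 and OSM comparisons share the DMSO arrays, so their values are not independent.

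Set directly against OSM at 24 h, BRD8518 arrays were lower for 25 coding members and higher for 4, where 12.3% of all genes were lower and 10.9% higher. The median difference of the members was -0.19, and this comparison uses no DMSO array. The largest negative difference was that of MRPL11, which had 8.06, 8.32 and 8.15 with BRD8518, against 8.94, 8.78 and 8.77 with OSM (difference -0.66, adjusted p = 4.05e-06). MRPS17, the counterpart of bacterial S17, differed by -0.56 (adjusted p = 0.000108) and MRPS7 by -0.54 (adjusted p = 1.89e-05). MRPS10, MRPS30, MRPL33 and MRPS35 were higher with BRD8518, by 0.46, 0.35, 0.32 and 0.25 (adjusted p = 0.0161, 0.00169, 0.0149 and 0.024). Of 14 alternatives, the call of MRPS10 was lost in 3 and that of MRPL33 in 2, at adjusted p up to 0.0659 and 0.0701. Without OSM 24 h replicate 1 the calls fell to 15 lower and 2 higher. At 1 h, 0 of 73 differed between BRD8518 and OSM, where 0.847% of all genes were higher and 1.5% lower. An unadjusted p under 0.05 in limma was found for 2 members, against 1531 of all 14884 genes, a larger share. DMSO at 24 h and at 1 h differed for 0 of 73 coding members and for 0.0% of all genes. In limma, 2 of the 73 and 424 of all 14884 genes had an unadjusted p under 0.05.

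Of the noncoding members, MRPS31P5 rose and MRPL23-AS1 fell with BRD8518 at 24 h. MRPS31P5, a transcribed pseudogene, had 5.61, 5.83 and 5.53 with BRD8518 at 24 h, against 5.04, 5.10 and 5.07 with DMSO, a rise of 0.59 (adjusted p = 3.44e-05). It rose by 0.38 at 6 h with BRD8518 (adjusted p = 0.0109) and by 0.31 at 24 h with OSM (adjusted p = 0.0344), and fell by 0.40 at 1 h with OSM (adjusted p = 0.0167). Its 24 h call with BRD8518 held in all 13 alternatives run for it, but the 6 h call was lost in 2 (adjusted p up to 0.179), the OSM 24 h call in 6 (up to 0.218) and the OSM 1 h call in 4 (up to 0.123). BRD8518 24 h arrays were separate from DMSO, with all 3 higher, while the OSM arrays were lower than DMSO at 1 h and higher at 24 h. MRPS31, its parent gene, changed by 0.11 at 24 h with BRD8518 and did not pass. MRPL23-AS1 fell by 0.56 at 6 h and 0.50 at 24 h with BRD8518 (adjusted p = 0.00192 and 0.00143), and MRPL20-AS1 by 0.61 at 6 h (adjusted p = 0.00182) but not past the threshold at 24 h (-0.22). The 6 h calls of MRPL23-AS1 and MRPL20-AS1 were each lost in 2 alternatives, among them the compared groups alone (adjusted p = 0.146 and 0.182). Each antisense gene overlaps its sense partner MRPL23 or MRPL20, and MRPS31P5 overlaps THSD1P1, and whether a probe set reads both was not tested. MRPL42P5 and MRPL45P2 passed in none of the 5 comparisons with DMSO.

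Neighbouring parts of the mitochondrial translation system were counted by lists chosen with these data known. Of 27 measured genes for ribosome assembly and rRNA modification, 7 fell and 0 rose with BRD8518 at 24 h (25.9% and median -0.16, where 15.6% of all genes fell), led by MRM2, an rRNA methyltransferase (-0.77, adjusted p = 2.75e-06), RCC1L (-0.43), MPV17L2 (-0.41) and MALSU1 (-0.38). At 6 h, 8 of the 27 fell and 0 rose (29.6% and median -0.03, where 8.86% of all genes fell), led by the rRNA methyltransferases MRM1 (-0.86) and MRM2 (-0.75), YBEY (-0.61) and MRM3 (-0.59). Of 14 translation factors and related genes, 5 fell (35.7%) and 1 rose at 24 h (median -0.23), where 15.6% of all genes fell and 12.1% rose. TRMU, which modifies mitochondrial tRNAs, fell by 0.58, GATB by 0.57, TACO1, a translational activator, by 0.50 and the initiation factor gene MTIF2 by 0.28, while MRRF, the ribosome recycling factor, rose by 0.48. At 6 h, 3 of the 14 fell (21.4%), among them TRMU (-0.75), and 1 rose, MRRF (0.45, a call lost in 7 of 14 alternatives), where 8.86% of all genes fell and 5.62% rose. Of 3 mitoribosomal proteins with no MRP symbol, CHCHD1 fell at 24 h (-0.48, adjusted p = 0.0175) and DAP3 was among those that did not pass. Of 14 alternatives, the 24 h call of CHCHD1 was lost in 4, that of MRRF in 3 and that of RCC1L in 2, all of them fits without 1 array, at adjusted p up to 0.0909, 0.0734 and 0.0762. That of MTIF2 was lost in 6, up to 0.212, among them centring (0.0701) and the compared groups alone (0.0501).

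Cytosolic ribosomal proteins and respiratory chain subunits were counted in the same way. Of 47 cytosolic ribosomal protein genes, 6 fell and 0 rose with BRD8518 at 24 h (12.8% and median -0.07, where 15.6% of all genes fell), RPS26 (-0.64), RPS23 (-0.35), RPS29 (-0.33) and RPL29 (-0.32) having the largest changes, and the calls of RPS26 and RPL29 were lost in 8 and 4 of 14 alternatives. Of 75 listed nuclear-encoded respiratory chain genes, only 15 had a probe set annotated to that gene alone and were counted. Of these 15, 1 fell (6.67%), COX7B (-0.56, adjusted p = 0.016), with a median of -0.11. Of 7 genes for transcription and upkeep of mitochondrial DNA, TRMT10C and HSD17B10, both of the mitochondrial RNase P, fell by 0.68 and 0.45, and the mitochondrial RNA polymerase gene POLRMT rose by 0.37. Of these 7, 28.6% fell and 14.3% rose with BRD8518 at 24 h, where 15.6% of all genes fell and 12.1% rose. The calls of COX7B and POLRMT were each lost in 4 fits without 1 array. Of 6 regulators, MYC rose with BRD8518 by 0.43, 1.10 and 0.68 at 1, 6 and 24 h (adjusted p = 0.000979, 1.35e-10 and 1.96e-08). Of all genes, 0.222%, 5.62% and 12.1% rose at these times. The 1 h call of MYC was lost in the compared groups alone (adjusted p = 0.096). At 24 h NRF1, a nuclear activator of mitochondrial genes, fell by 0.34 (adjusted p = 0.00236) and NRIP1 by 0.22, a call lost in 4 of 14 alternatives. These falls are 33.3% of the 6 regulators, where 15.6% of all genes fell. With OSM at 24 h, NRF1 fell by 0.31 (adjusted p = 0.0124, and 0.0803 without OSM 24 h replicate 3), MTERF4 by 0.55 and MPV17L2 by 0.25. The falls were 1 of 6 regulators (16.7%) and 2 of 27 assembly genes (7.41%), where 5.65% of all genes fell. OSM at 1 h lowered MTERF4 by 0.32 and raised MTRF1L by 0.44 (adjusted p = 0.0378 and 0.0372), calls lost in 6 and 7 of 14 alternatives, and that of MPV17L2 at 24 h was lost in 6. At 1 h the fall was 1 of 27 assembly genes (3.7%), where 0.813% of all genes fell. The rise was 1 of 14 translation factors (7.14%), where 2.03% of all genes rose. Differences between the lists were not tested.

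The promoter motifs were then set beside the calls at 24 h as a description. The NRF1 motif stood in 7 of the 27 matched coding members that fell (25.9%) and in 1 of the 38 that did not (2.63%, MRPL45). The 7 were MRPL14, MRPL17, MRPL30, MRPL36, MRPL57, MRPS33 and MRPS9, and MRPL11, with the largest fall, was not among them. CCGGAAG stood in 44.4% of those that fell and 42.1% of those that did not, AAGATGGC in 22.2% and 34.2%, and CACGTG in 11.1% and 5.26%. Whether the difference for the NRF1 motif exceeds chance was not tested, and the same split was not made over all genes. Over all matched coding members this motif stood in 12.3%, against 12.5% for genes at or above the median level.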

How the data were processed

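Total RNA of HepG2 cells was measured on 24 Affymetrix whole-transcript arrays, which the labels place in 8 groups of treatment and time. The values are log2 levels that the authors computed by RMA with oligo, per the submitters' processing notes. Versions of RMA and oligo, and the genome build behind the probe sets, are not stated there. As deposited and used here, values span 0.913 to 13.718 over 53617 probe sets, and array medians lie between 4.89 and 4.95. RMA makes no detection calls, so distance from background is unknown, and precision depends on how many arrays a group has.

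Only the 16098 probe sets annotated to exactly 1 gene symbol were used. The other 37519, with no symbol or with more than 1, were left out. A gene covered only by such probe sets counts as not measured here. Each gene was represented by its probe set of highest mean over all arrays, giving 14884 genes, with no filter on low signal. The 78 members had 87 probe sets, and 4 members had more than 1.

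One limma fit (version 3.58.1, R 4.3.3) estimated a mean for each group, without weights, followed by eBayes moderation (prior degrees of freedom 5.3, total 21.3). The 11 contrasts were tested on both sides and adjusted by Benjamini-Hochberg over all 14884 genes, with a threshold of 0.05. On data simulated for BRD8518 24 h against DMSO 24 h, limma called 10% of 50 genes changed by 0.25 on the log2 scale, 50% of those changed by 0.5, 98% of those changed by 1 and 100% of those changed by 2. Only 50 of the 14884 genes were changed at each size there, while in the data 2322 genes fell and 1800 rose. The adjusted threshold was therefore stricter in the simulation, and recovery in the data themselves was not measured. Tables and figures were made with Python 3.11.15, pandas 2.3.3 and matplotlib 3.10.9.

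Members, gene lists, motifs and tests were chosen with earlier results of these data known. By the rule for names, the text gives at most 8 members per direction past the threshold in each comparison with DMSO, the 2 largest changes in a direction where fewer than 2 passed, at most 4 per direction in other contrasts, the 3 brightest and 3 dimmest members, the MRPS18 paralogs, the noncoding members and at most 4 genes per direction of each list. Genes named beyond it (the further falls at 24 h, members set beside others and bearers of a motif) were chosen after their values were seen. Of the lists, that of mitochondrial aminoacyl-tRNA synthetases is not analysed here. The alternatives used only genes at or above the median level, centred the arrays, normalized them by quantiles, moderated with trend and robust options, fitted the compared groups by themselves, weighted arrays, averaged probe sets, took the position letter as a block with random effects, or left out each array.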

Additional observations from a re-analysis of the deposited data

Results flagged for a closer look

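Levels on DMSO 6 h replicate 2 stood apart from the other 3 DMSO 6 h arrays for 17 of the 78 members by Dixon's ratio of gap to range. The mean of the 73 coding members did not stand apart, and all 17 values past the 95% limit were on this array. Chance gives about 1 in 20, but members on the same array are not independent. The array also stood apart over all genes, with a median absolute deviation of 0.27. The share of all genes past the limit was not computed, so the count may not be particular to the members. Only DMSO 6 h, the group of 4 arrays, was examined by this ratio, so arrays of the other groups were not searched. On it 12 members lay below the other arrays. The ratios were 0.855 for MRPL17, 0.976 for MRPL19, 0.925 for MRPL20, 0.866 for MRPL30, 0.959 for MRPL37, 0.967 for MRPL40, 0.918 for MRPL42, 0.838 for MRPL44, 0.8997 for MRPL45, 0.841 for MRPL46, 0.918 for MRPS14 and 0.925 for MRPS21. The other 5 lay above, with ratios of 0.897 for MRPL15, 0.842 for MRPL32, 0.921 for MRPL38, 0.916 for the pseudogene MRPL42P5 and 0.917 for MRPS16. The largest gap was that of MRPL42, which had 6.23 on this array, against 7.74 to 7.87 on the others. MRPS14 had 6.88, against 7.87 to 7.96, and MRPS16 had 9.87, against 9.46 to 9.49. The fits without this array are given with the 6 h results.

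The effect of BRD8518 differed between times for 15 members by limma's test of the difference. Lower effects at 6 h than at 1 h were called for 3.85% of the 78 members, near the 3.91% of all genes. At 24 h against 6 h, 14.1% of members were lower and 1.28% higher, against 5.12% and 5.96% of all genes. From 1 h to 6 h the difference was -0.63 for MRPL20-AS1 (adjusted p = 0.0339), -0.58 for MRPL23-AS1 (adjusted p = 0.0375) and -0.46 for MRPL35 (adjusted p = 0.0152). These calls were lost in 8 of 19, 10 of 20 and 3 of 20 alternatives, at adjusted p up to 0.261, 0.249 and 0.135. From 6 h to 24 h it was negative for 11 members. These were MRPL1 (-0.64), MRPL11 (-0.83), MRPL13 (-0.42), MRPL16 (-0.63), MRPL17 (-0.46), MRPL18 (-0.46), MRPL36 (-0.40), MRPL43 (-0.59), MRPS27 (-0.49), MRPS28 (-0.42) and MRPS7 (-0.41), with adjusted p between 0.000108 for MRPL11 and 0.0283 for MRPS27. It was positive for MRPS25 (0.46, adjusted p = 0.032), which was lower at 6 h than at 24 h. For OSM, the effect of MRPS31P5 was 0.71 higher at 24 h than at 1 h (adjusted p = 0.00194). That is 1.28% of members, near the 1.27% of all genes that were higher. The 6 h effects rest on 2 BRD8518 arrays, and the causes of these differences were not tested.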

How the results depend on the processing

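With BRD8518 at 24 h the count of coding members past the threshold was 33, and 32 to 49 in the 8 alternatives that keep all arrays, and 26 to 31 without 1 array, with the median change from -0.28 to -0.18. The 8 largest falls kept their call throughout. No direction turned among the 88 named changes, but 43 lost their call in at least 1 alternative and 2 gained one. At 6 h the 7 calls became 4 with centred arrays, 0 in the compared groups alone and 12 with array weights, and 2 to 12 without 1 array. For OSM at 24 h the 2 calls became 4 among genes at or above the median level, 1 with quantile normalization, a rise where both falls were lost, and 12 with array weights, and 0 to 2 without 1 array. For OSM at 1 h the 0 calls became 1 with quantile normalization, 1 in the compared groups alone and 2 with array weights. BRD8518 against OSM at 24 h gave 17 to 28 calls without 1 array, against 29. The test of BRD8518 effects at 6 h against 1 h gave 1 lower effect, MRPL35. It became 4 calls at or above the median level, 2 higher and 0 lower with centring (MRPL35 at adjusted p = 0.0571), 2 lower each with quantile normalization and trend with robust moderation, 0 in the compared groups alone, 6 with array weights, and 0 to 6 without 1 array. At 24 h against 6 h the 12 calls became 4 in the compared groups alone and 25 with array weights, and 7 to 23 without 1 array. For OSM effects at 24 h against 1 h the 0 calls became 2 with array weights. The causes of these shifts were not tested. No paired analysis was possible because the labels give no replicate numbers that tie arrays across groups. Probe sets without detection calls and 2 to 4 arrays per group limit every change. Changes of 0.25 were seldom recovered in a simulation with far fewer changed genes than BRD8518 at 24 h had calls.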
